A study of Mus musculus with 8 samples.

Results

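The genes of the ATF4 arm of the integrated stress response were followed in mouse bone marrow-derived macrophages (Mϕ) by total RNA sequencing. The members were 10 genes chosen by symbol, namely Atf4, Atf3, Atf5, Ddit3, Trib3, Chac1, Sesn2, Asns, Psat1 and Phgdh, and every row of the deposited table whose Ensembl identifier carries one of these symbols in the mouse GENCODE annotation was taken. That gave 11 of 55359 rows, because Ddit3 stands on 2 rows. The Mϕ came from adult male and female C57BL/6 wildtype mice and were grown with 20 ng/mL M-CSF and 20 ng/mL GM-CSF, so that all groups share both growth factors. The 4 groups held 2 samples each. Ctrl were naïve, unstimulated Mϕ, and LPS were naïve Mϕ given 100 ng/mL LPS with 100 U/mL IFNγ for 6 h. Eff were Mϕ kept for 16 h with apoptotic NIH-3T3 fibroblasts at 5 fibroblasts per Mϕ, and LPSEff were such efferocytic Mϕ that then received the same LPS/IFNγ stimulus for 6 h. The fibroblasts were a single clone carrying an activatable human caspase-8, killed with 10 nM dimerizer. The dimerizer stayed in the co-culture at 10 nM, so Mϕ of Eff and LPSEff met it too. None is given for Ctrl and LPS, so its effect cannot be told apart from that of the fibroblasts. Efferocytosis here thus means co-culture with cells of that clone. Mϕ were collected on CD45 beads and not sorted for uptake. Neither the labels nor the methods say that replicates 1 and 2 were separate cultures or animals, so the p-values measure the spread between these samples, which may be technical. In bulk samples such as these, fewer cells of a type and less RNA per cell cannot be told apart.

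As background, the integrated stress response begins when a kinase (PERK, GCN2, PKR or HRI) phosphorylates the alpha subunit of the initiation factor eIF2. Most translation then slows, while the mRNA of the transcription factor ATF4 is translated better because of short open reading frames in its leader. ATF4 pairs with C/EBP proteins and other bZIP factors and switches on genes for amino acid synthesis and uptake, further transcription factors (ATF3, ATF5 and CHOP, the product of Ddit3) and brakes on the response. Control of ATF4 is thus largely at translation, and the values here are RNA levels only. In Mϕ, Atf3 is also a well-known early gene of Toll-like receptor signalling that restrains cytokine genes, so it is not a marker of ATF4 alone.

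ATF4 and C/EBP heterodimers are known to bind the C/EBP-ATF response element, whose core was searched as the letters TGATGNAA on both strands (TTNCATCA on the other strand) in the 250 bases before the start of each member. With RefSeq starts, Atf3, Chac1 and Asns held the core, 3 of 10 genes, against 3.91% of the 27025 genes of the RefSeq promoter table and 2.47% of the 10235 tested genes matched to it. The RefSeq table is on GRCm38.p6, and each stretch was placed on GRCm39, the build of the files (mm39), by an exact match found once. With the starts of the GENCODE canonical transcripts on GRCm39, Atf3, Chac1 and Ddit3 held it instead, so that the result for Asns and Ddit3 depends on the start chosen. The stretches are printed because they are the only members' promoters in which the letters were found, 5′ to 3′ on the strand of the gene, with the core in capitals. The core begins 110 bases before the start in Atf3, 193 in Chac1 and 23 in Asns with RefSeq starts, and 199 in Ddit3 with the GENCODE start. A match is a description of letters and not a bound site. The members were chosen as genes of the ATF4 response, so their share beside that of all genes is no independent result.
Atf3 (GRCm39 chr1:190915531-190915780, minus strand): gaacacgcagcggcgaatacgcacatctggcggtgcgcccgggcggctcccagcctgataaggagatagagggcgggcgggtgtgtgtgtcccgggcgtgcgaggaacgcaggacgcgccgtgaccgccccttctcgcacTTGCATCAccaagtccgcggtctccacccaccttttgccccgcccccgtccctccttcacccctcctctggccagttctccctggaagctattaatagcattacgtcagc
Chac1 (GRCm39 chr2:119181473-119181722, plus strand): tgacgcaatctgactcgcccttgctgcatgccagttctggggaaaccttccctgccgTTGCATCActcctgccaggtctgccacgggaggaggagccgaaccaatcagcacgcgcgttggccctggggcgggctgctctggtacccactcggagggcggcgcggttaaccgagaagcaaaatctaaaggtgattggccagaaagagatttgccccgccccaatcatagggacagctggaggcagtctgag
Asns (GRCm39 chr6:7693210-7693459, minus strand): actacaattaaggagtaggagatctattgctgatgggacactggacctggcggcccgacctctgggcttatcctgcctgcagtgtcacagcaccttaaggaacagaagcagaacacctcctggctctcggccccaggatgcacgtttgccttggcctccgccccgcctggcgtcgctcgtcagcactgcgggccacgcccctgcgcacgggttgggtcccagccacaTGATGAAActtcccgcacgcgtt
Ddit3 (GRCm39 chr10:127126310-127126559, plus strand): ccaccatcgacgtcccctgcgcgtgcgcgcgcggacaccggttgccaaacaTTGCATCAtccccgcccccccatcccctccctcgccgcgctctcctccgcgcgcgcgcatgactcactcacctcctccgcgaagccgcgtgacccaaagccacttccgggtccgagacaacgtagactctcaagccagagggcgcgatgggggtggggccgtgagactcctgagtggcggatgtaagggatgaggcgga
Of the genes that hold the core, Atf3 passed the test after stimulation with and without efferocytosis. Chac1, Asns and Ddit3 did not pass it in any comparison on the deposited scale with all 8 samples. Atf5, which passed in both, holds no such letters in these windows.

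The deposited values are normalized counts, in which all reads of a sample are scaled by its size factor. Between 3481288 and 12020918 reads per sample could be recovered from these values, and 3 reads correspond to 1.73 to 5.71 normalized counts. The members took 0.0544% to 0.104% of the reads. Differences were tested with limma on log2(normalized count + 1) over 16309 genes whose mean reached 10 normalized counts, which all 11 rows passed on their mean over all samples. Genes were called where p, adjusted by Benjamini and Hochberg over all tested genes, was under 0.05. The smallest p that an exact permutation test allows with 2 samples in each group is 0.333, so the limma p-values rest on a spread shared across genes. The summed macrophage markers (Adgre1, Csf1r, Lyz2 and 7 others) lay between 120089 and 237542 normalized counts in all samples, and the 5 lymphocyte markers together between 2.54 and 16.8. Lyz2 (mean 77923) and Mmp12 (mean 50706) were the largest parts of the macrophage sum, so it hides changes of single markers. Adgre1 had 1761 and 2780 in Ctrl and 5230 and 6062 in LPS, and Mrc1 had 5223 and 5027 in Ctrl and 1591 and 3257 in LPS. In LPS vs Ctrl 5 of the 10 lay above 0 and 5 below. The 18 fibroblast markers summed to 204 and 433 (Ctrl), 982 and 1065 (LPS), 2443 and 5065 (Eff), and 7138 and 6644 (LPSEff), so fibroblast RNA was present in the CD45-selected efferocytic samples.

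The first question was whether LPS/IFNγ changed the ATF4 genes in naïve Mϕ (LPS vs Ctrl) and in efferocytic Mϕ (LPSEff vs Eff), which are comparisons of separate samples. Atf3 rose and Atf5 fell in both, and no other member passed the test in either on the deposited scale with all 8 samples and no replicate block. In naïve Mϕ 2 of 11 rows were called, where 24.0% of all tested genes were called, and in efferocytic Mϕ also 2 of 11, where 19.7% were. Called members were thus no more frequent than called genes in general. The median log2 fold change over the 11 rows was 0.13 in naïve and 0.37 in efferocytic Mϕ, beside -0.01 and 0.01 over all tested genes. The groups did not overlap for 6 of 11 rows in naïve Mϕ (background 59.3%) and for 10 of 11 in efferocytic Mϕ (background 59.9%). For 6 of 11 rows they did not overlap in the same direction in both, where 44.7% of all genes did so. Fibroblast markers were also called higher, 3 of 16 in naïve and 1 of 16 in efferocytic Mϕ (medians 1.32 and 0.95). Ctrl and LPS received no fibroblasts, so part of this list was higher under LPS/IFNγ without them (Pdgfrb 15.2 and 11.6 in Ctrl, 246 and 245 in LPS). Also called higher were 1 of 4 dendritic cell markers in each, and 2 of 6 (Camp and S100a8) and 1 of 6 (Camp) neutrophil and granulocyte precursor markers (medians 1.09 and 0.55). The part of these cell types in the members' values was not tested. Of 10 macrophage markers, 2 were called higher in naïve and 3 in efferocytic Mϕ, and 0 lower in either. These calls rest on the authors' size factors, under which the stimulated samples have larger totals, and rescaling all samples to equal totals moves the median of all genes to -0.40 in naïve and -0.44 in efferocytic Mϕ. The median of the 11 rows moves to -0.27 in naïve and -0.08 in efferocytic Mϕ, so its sign turns with the scaling. At equal totals Atf5 and Psat1 were called lower and no member higher in naïve Mϕ, and in efferocytic Mϕ Atf3 was called higher and Atf5 and Ddit3 lower. The share of all called genes that were higher was 51.5% and 54.6%, and 24.8% and 21.8% at equal totals.

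**Figure D1:**
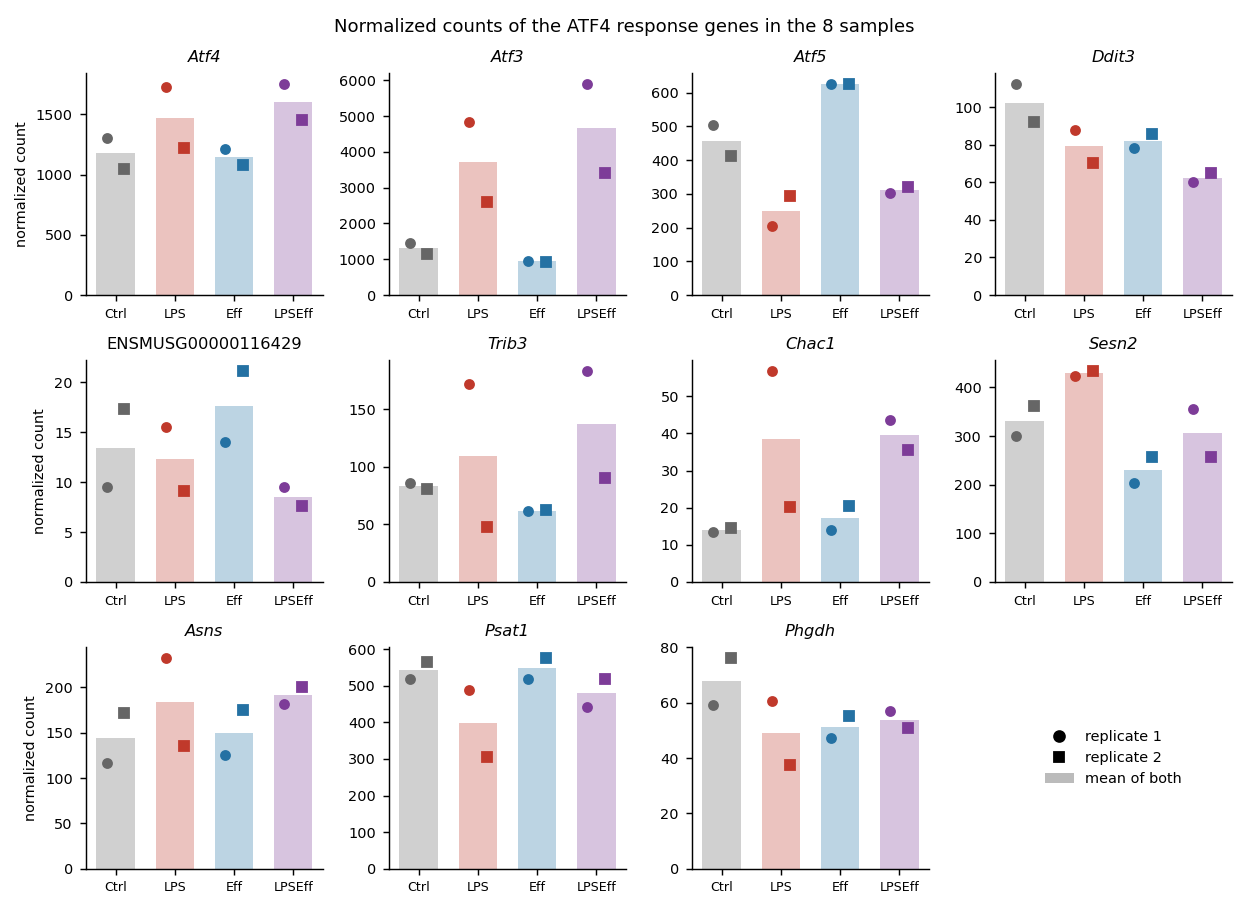
Normalized counts (y axis, linear, from 0) of the 11 rows in each sample of Ctrl, LPS, Eff and LPSEff, with circles for replicate 1, squares for replicate 2 and bars for the mean of both. Atf3 lies at 2594 or more in the 4 stimulated samples and at 1457 or less in the others, while for Trib3 and Chac1 replicate 1 of LPS lies far above replicate 2 of LPS.

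Atf4 itself (ENSMUSG00000042406, chromosome 15, 80139372 to 80141745, plus strand), the central transcription factor, did not pass the test in either comparison without a replicate block. It had 1302 and 1049 (Ctrl), 1724 and 1219 (LPS), 1209 and 1076 (Eff), and 1754 and 1454 (LPSEff), each pair being replicates 1 and 2 in normalized counts. Replicate 1 exceeded replicate 2 in every group, so the naïve groups overlapped, while both LPSEff samples exceeded both Eff samples. The log2 fold change was 0.31 ± 0.23 (SE, n = 2 per group) in naïve Mϕ, with a 95% confidence interval of -0.21 to 0.83 and limma's adjusted p = 0.378. In efferocytic Mϕ it was 0.48 ± 0.23 (interval -0.04 to 1.01, limma adjusted p = 0.181). With the replicate number as a block, which same-numbered samples warrant, the latter passed (limma adjusted p = 0.0159; 3 of 11 rows called), in a fit that called 37.0% of all genes in this comparison. Rescaled to equal totals, the value was -0.09 in naïve and 0.03 in efferocytic Mϕ, so the direction of Atf4 in naïve Mϕ turns with the scaling.

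Atf3 (ENSMUSG00000026628, chromosome 1, 190902493 to 190950241, minus strand), a bZIP factor that mostly represses, rose in both comparisons. Its normalized counts were 1457 and 1158 (Ctrl), 4844 and 2594 (LPS), 956 and 934 (Eff), and 5901 and 3415 (LPSEff). All stimulated samples lay above all unstimulated ones. The increase was 1.45 ± 0.34 on the log2 scale in naïve Mϕ (limma adjusted p = 0.0184) and 2.25 ± 0.34 in efferocytic Mϕ (limma adjusted p = 0.00319). In efferocytic Mϕ the call held under all 16 alternatives run, with log2 fold changes from 1.71 to 2.64. In naïve Mϕ it was lost under 5 of 16, namely with either scaling alternative (limma adjusted p = 0.11 after quantile normalization and 0.0687 at equal totals), and without Ctrl replicate 1 (0.0583), Ctrl replicate 2 (0.107) or LPS replicate 1 (0.0843), while the log2 fold change stayed between 0.90 and 1.90.

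Atf5 (ENSMUSG00000038539, chromosome 7, 44461680 to 44466082, minus strand), another bZIP factor whose mRNA, like that of ATF4, is translated better when eIF2 is phosphorylated, went the other way. The normalized counts were 505 and 412 (Ctrl), 206 and 292 (LPS), 627 and 626 (Eff), and 302 and 319.8 (LPSEff). Every stimulated sample was below every unstimulated one, and both Eff samples were above both Ctrl samples. Stimulation lowered Atf5 with a log2 fold change of -0.89 ± 0.22 in naïve (limma adjusted p = 0.0211) and -1.01 ± 0.22 in efferocytic Mϕ (limma adjusted p = 0.0144). The sign held under all 16 alternatives of each comparison, with values from -1.29 to -0.64 in naïve and from -1.46 to -0.97 in efferocytic Mϕ. The call was lost in naïve Mϕ without Ctrl replicate 1 (-0.75, limma adjusted p = 0.13), Ctrl replicate 2 (0.0502) or LPS replicate 1 (0.101) and with only these groups in the fit (0.0671). In efferocytic Mϕ it was lost without any single Eff or LPSEff sample (0.0566 to 0.0830). Atf5 overlaps Nup62 and Il4i1 on the other strand. The methods give htseq-count with default settings and name no strand setting, and whether reads of these genes were kept apart was not tested.

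Ddit3 (ENSMUSG00000025408, chromosome 10, 127124268 to 127132163, plus strand) encodes CHOP, the factor linked to death under lasting stress, and neither of its differences passed the test on the deposited scale. Its normalized counts were 112 and 92.0 (Ctrl), 87.9 and 70.1 (LPS), 78.0 and 85.4 (Eff), and 60.2 and 64.7 (LPSEff). Both stimulated samples lay below both unstimulated ones in naïve and in efferocytic Mϕ, with log2 fold changes of -0.37 ± 0.25 and -0.38 ± 0.25 (limma adjusted p = 0.343 and 0.348). At equal totals the efferocytic value was -0.83 and passed (limma adjusted p = 0.0424). The 95% intervals reached up to 0.21 and 0.20, so a 2-fold increase of Ddit3 RNA lies outside both on the deposited scale. The second row with this symbol (ENSMUSG00000116429, chromosome 10, 127126698 to 127129622, plus strand) is a short open reading frame of 105 exonic bases that lies within the exons of Ddit3. It was counted with 5 to 30 reads per sample and had 9.52 and 17.3 (Ctrl), 15.5 and 9.14 (LPS), 14.0 and 21.2 (Eff), and 9.50 and 7.61 (LPSEff). Reads that fall in both genes are ambiguous for the counter, so both rows are uncertain.

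Among the feedback genes and effectors, Trib3 (ENSMUSG00000032715, chromosome 2, 152179337 to 152191958, minus strand), a pseudokinase that binds ATF4 and CHOP and damps the response, differed most between the LPS replicates. Its normalized counts were 85.7 and 80.4 (Ctrl), 172 and 47.7 (LPS), 61.3 and 62.1 (Eff), and 184 and 90.1 (LPSEff). In naïve Mϕ the stimulated samples lay on both sides of Ctrl, with a log2 difference of 1.00 within replicate 1 and -0.74 within replicate 2. In efferocytic Mϕ both differences were positive (1.57 and 0.53), for a log2 fold change of 1.05 ± 0.56 that did not pass (limma adjusted p = 0.243) and was 0.54 without LPSEff replicate 1 (0.689). The count test of edgeR with the replicate block, on the recovered reads, called it higher (adjusted p = 0.0474), as did DESeq2 with the block (0.041), in fits that called 4 of 11 rows and 38.7% and 32.4% of all genes.

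Chac1 (ENSMUSG00000027313, chromosome 2, 119180757 to 119184866, plus strand), which degrades glutathione, the gene with the lowest level per transcript length, had 13.3 and 14.5 (Ctrl), 56.9 and 20.3 (LPS), 14.0 and 20.5 (Eff), and 43.5 and 35.5 (LPSEff). Each stimulated group lay above its own unstimulated control, with log2 fold changes of 1.24 ± 0.51 and 1.17 ± 0.51. Neither passed (limma adjusted p = 0.122 and 0.156). In naïve Mϕ the log2 difference was 2.01 within replicate 1 and 0.46 within replicate 2, so the value turns on the LPS library. Without LPS replicate 1 it was 0.52 (limma adjusted p = 0.549), and without LPS replicate 2 it was 1.96 and passed (limma adjusted p = 0.0298).

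Sesn2 (ENSMUSG00000028893, chromosome 4, 132219335 to 132237815, minus strand) encodes a leucine sensor that restrains mTORC1. Its span overlaps that of Gm12981 on the same strand, and reads that fall in exons of both would be ambiguous for the counter. The counts of Sesn2 were 301 and 361 (Ctrl), 424 and 435 (LPS), 204 and 256 (Eff), and 356 and 256 (LPSEff). Both LPS samples were above both Ctrl samples, and the LPSEff samples reached from just above the higher Eff sample upwards. The LPS/IFNγ difference of 0.38 ± 0.23 in naïve and 0.40 ± 0.23 in efferocytic Mϕ did not pass (limma adjusted p = 0.282 and 0.277), and it was -0.02 and -0.05 at equal totals.

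None of the amino acid synthesis enzymes passed the test under LPS/IFNγ. Asns (ENSMUSG00000029752, chromosome 6, 7671667 to 7728461, minus strand), asparagine synthetase and a classical ATF4 target, had 116 and 171 (Ctrl), 233 and 135 (LPS), 125 and 175 (Eff), and 182 and 201 (LPSEff). The naïve groups overlapped, with 1.00 within replicate 1 and -0.34 within replicate 2, and both LPSEff samples were above both Eff samples (0.37 ± 0.33, limma adjusted p = 0.498). Psat1 (ENSMUSG00000024640, chromosome 19, 15882039 to 15924701, minus strand), of the serine pathway, had 519.8 and 565 (Ctrl), 489 and 307 (LPS), 518 and 577 (Eff), and 441 and 518 (LPSEff). Stimulated samples were lower in naïve Mϕ by a log2 fold change of -0.48 ± 0.24 (limma adjusted p = 0.196), a difference that passed at equal totals (-0.88, limma adjusted p = 0.0304) and without LPS replicate 1 (-0.82, 0.0449) but was -0.15 without LPS replicate 2 (0.684), and the difference in efferocytic Mϕ was -0.19 ± 0.24. Phgdh (ENSMUSG00000053398, chromosome 3, 98220484 to 98255047, minus strand), the entry enzyme of serine synthesis, had 59.0 and 76.3 (Ctrl), 60.8 and 37.6 (LPS), 47.3 and 55.0 (Eff), and 57.0 and 50.8 (LPSEff). The Phgdh groups overlapped in both comparisons, and a named pseudogene (Phgdh-ps1) could share its reads.

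**Figure D2:**
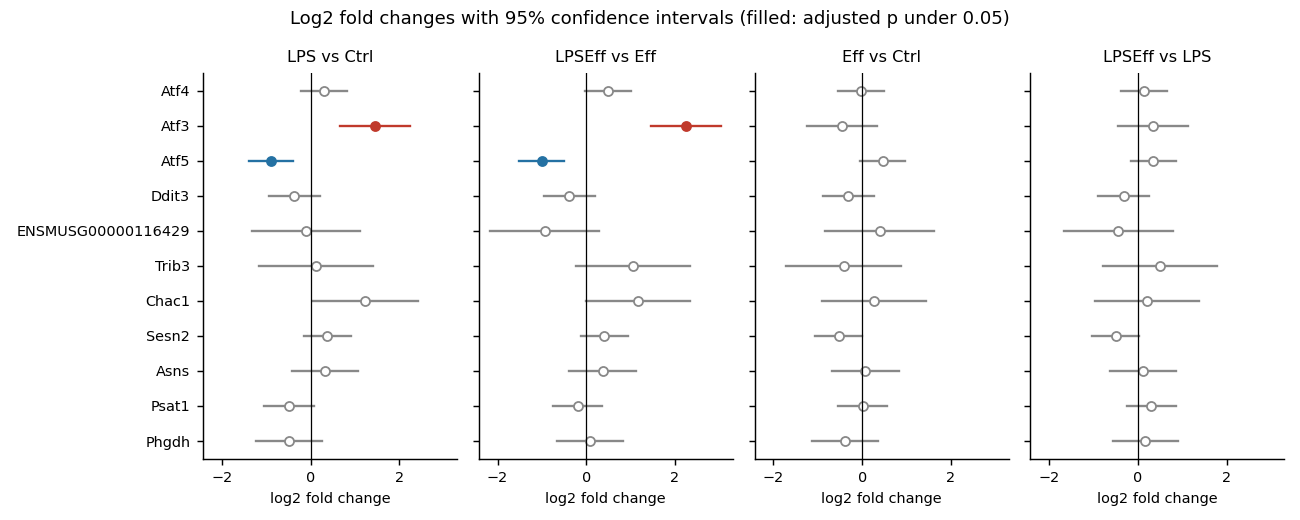
Log2 fold change (x axis, log2(normalized count + 1) scale) of each of the 11 rows in the LPS/IFNγ comparisons (LPS vs Ctrl and LPSEff vs Eff) and the efferocytosis comparisons, with lines for the 95% confidence interval and filled points for rows called at a limma adjusted p under 0.05. Filled points appear for Atf3 (higher) and Atf5 (lower) in the LPS/IFNγ comparisons and for no member in the efferocytosis comparisons.

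Several ATF4 targets were higher in replicate 1 of LPS than in replicate 2. The log2 excess of replicate 1 was 1.83 for Trib3, 1.44 for Chac1, 0.90 for Atf3 and 0.78 for Asns. For Trib3 and Chac1, 2 of 11 rows, replicate 1 was at least 2-fold above replicate 2, as it was for 8.36% of all tested genes. In LPSEff this held for Trib3 alone (1.02; 6.41% of all genes). For Trib3 the unstimulated replicates differed by 0.09 in Ctrl and -0.02 in Eff, whereas for Asns replicate 2 was the higher in Ctrl (-0.56), Eff (-0.48) and LPSEff (-0.14). Atf4 and Atf3 were higher in replicate 1 of every group, which was so for 14.7% of all genes. The summed dendritic cell markers moved the other way between replicates, with 10312 and 22274 normalized counts in replicates 1 and 2 of LPS and 4387 and 9293 in Ctrl, and their part in these differences was not tested.

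**Figure D3:**
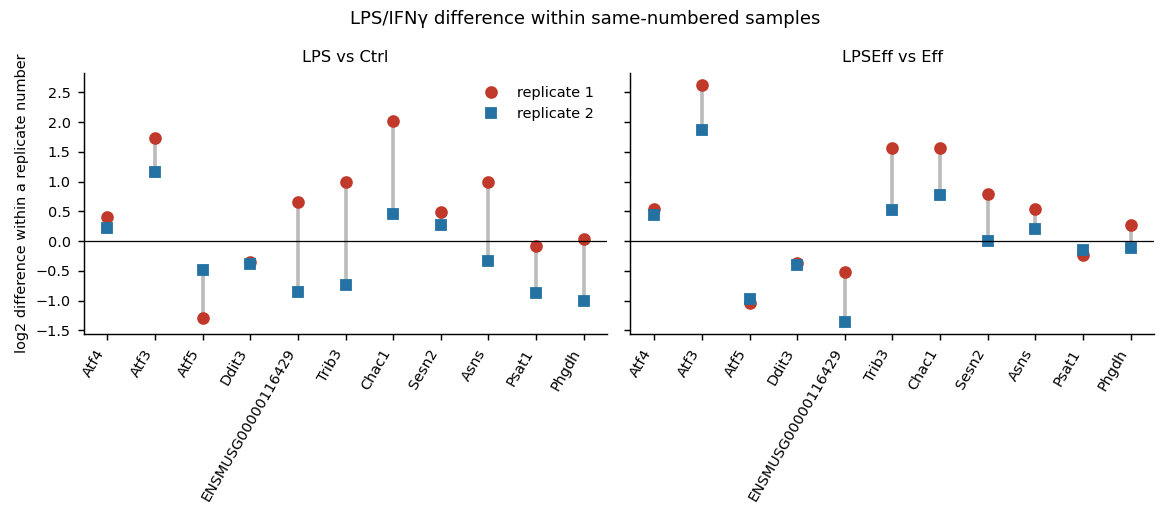
Log2 difference between the stimulated and the unstimulated sample of the same replicate number (y axis) for each of the 11 rows, with naïve Mϕ on the left and efferocytic Mϕ on the right. In naïve Mϕ, Trib3 (1.00 and -0.74) and Asns (1.00 and -0.34) have opposite signs in replicates 1 and 2.

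The second question was whether efferocytosis changed these genes, in unstimulated (Eff vs Ctrl) and in stimulated Mϕ (LPSEff vs LPS). No member was called in either, by limma, edgeR or DESeq2, and without the replicate block none had an unadjusted limma p under 0.05. With the block the unadjusted limma p in Eff vs Ctrl was 0.0226 for Sesn2, 0.0320 for Atf5 and 0.0409 for Atf3. In LPSEff vs LPS it was 0.0272 for Sesn2, and no member was called with the block in either comparison. Calls were rare in general. In unstimulated Mϕ limma called 0.251% of all tested genes, edgeR 0.0858% and DESeq2 1.27%, and in stimulated Mϕ 0.773%, 0.773% and 2.26%. With the block limma called 2.67% in unstimulated and 6.97% in stimulated Mϕ. Each comparison shares its control samples with an LPS/IFNγ comparison. The groups did not overlap for 6 of 11 rows in unstimulated Mϕ (background 34.1%) and for 3 of 11 in stimulated Mϕ (background 36.3%). Sesn2, Atf5 and Ddit3 were separated in the same direction in both, as were 14.6% of all genes. The median log2 fold change over the 11 rows was -0.04 in unstimulated and 0.17 in stimulated Mϕ.

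Sesn2 was lower in efferocytic Mϕ with and without stimulation. The log2 fold change was -0.53 ± 0.23 in Eff vs Ctrl (limma adjusted p = 0.814) and -0.51 ± 0.23 in LPSEff vs LPS (limma adjusted p = 0.513). Averaged over both states, with all 4 efferocytic against all 4 naïve samples, it was -0.52 ± 0.16 (95% interval -0.89 to -0.14, limma adjusted p = 0.203), where 1.92% of all genes were called and 0 of 11 rows. With the replicate block the average passed for Sesn2 (limma adjusted p = 0.0388), alone among the members, in a fit that called 11.3% of all genes. edgeR and DESeq2 with the block also called it (adjusted p = 0.0385 and 0.0346, with 11.7% and 9.98% of all genes called).

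Atf5 was higher in efferocytic Mϕ in both states, by 0.46 ± 0.22 and 0.34 ± 0.22, with an average of 0.40 ± 0.16 that had an unadjusted limma p of 0.0323 and an adjusted p of 0.311 (0.0784 with the block). Ddit3 was lower in both, by log2 fold changes of -0.31 ± 0.25 and -0.33 ± 0.25, neither of which passed. For Atf4 the efferocytosis differences were -0.04 (95% interval -0.56 to 0.48) and 0.14 (-0.38 to 0.66), so that a 2-fold change of its RNA in either direction lies outside both intervals. Atf3 (-0.46), Trib3 (-0.42) and Phgdh (-0.39) were lower in both Eff than in both Ctrl samples, and their stimulated groups overlapped.

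Most fibroblast markers rose in both efferocytosis comparisons, with 8 of 16 tested markers called higher in each and a median log2 fold change of 4.23 and 4.42. In Eff vs Ctrl 15 of 16 lay above 0 and 1 below (Thy1, -0.28). In LPSEff vs LPS 14 lay above 0 and 2 below, namely Thy1 and Pdgfrb, the latter at -1.10. Col1a1, Col1a2, Col3a1, Col6a1, Col6a3, Pdgfra, Dcn and Bgn were called in LPSEff vs LPS. The part of this RNA in the values of Sesn2, Atf5 and Ddit3 was not tested. The dendritic cell markers were lower in efferocytic samples for 4 of 4 tested genes in both states (medians -0.71 and -0.81), of which none passed without the replicate block, and their part was not tested either. Of 6 neutrophil and granulocyte precursor markers, S100a8 alone was called higher in Eff vs Ctrl and none in LPSEff vs LPS (medians 0.33 and -0.08), and their part was likewise not tested.

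**Figure D4:**
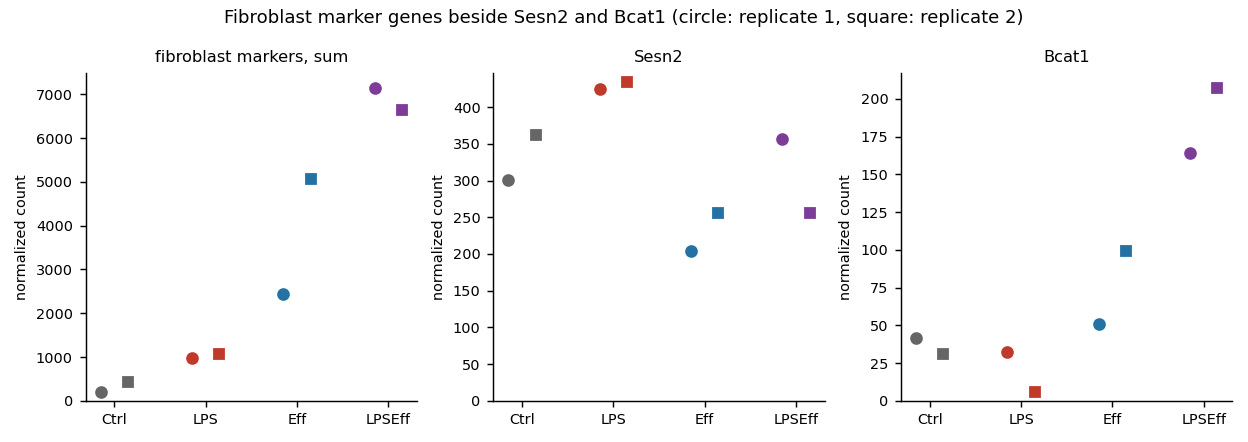
Normalized counts (y axes, linear, from 0) of the summed 18 fibroblast markers, of Sesn2 and of Bcat1, an amino acid enzyme described further on, in each sample of the 4 groups. The marker sum is 1065 or less in the naïve and 2443 or more in the efferocytic samples, Sesn2 is lower in the efferocytic samples of each state, and Bcat1 is higher.

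Whether the LPS/IFNγ effect differed between efferocytic and naïve Mϕ was tested as an interaction. Without the replicate block no member was called by limma, edgeR or DESeq2, which called 0%, 0% and 0% of all genes. In that limma fit 311 of 16309 genes and none of the 11 rows had an unadjusted limma p under 0.05. The interaction of Atf3 was 0.80 ± 0.49 (95% interval -0.32 to 1.92), that of Trib3 0.92 ± 0.79 (-0.90 to 2.74) and that of Atf4 0.17 ± 0.32 (-0.56 to 0.91). Without the block the intervals of Atf3 and Trib3 span both 0 and a 2-fold difference in response, so neither can be told from the other. With the block the interaction of Atf3 was 0.80 ± 0.28, with 0.89 within replicate 1 and 0.71 within replicate 2. Its unadjusted limma p was then 0.0158 and its adjusted limma p 0.640, so it was not called.

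Per kilobase of the canonical transcript, Atf4 and Atf3 were the most abundant members in Ctrl, at 675 and 659 normalized counts per kilobase, a pair that did not differ beyond its spread. They were followed by Atf5 at 252 and Psat1 at 207. Ddit3 (104) and Sesn2 (95.0) came next, then Trib3 (39.7), Phgdh (35.8) and Asns (29.3), and last Chac1 (8.36). After stimulation Atf3 led at 1874 in LPS and 2348 in LPSEff, above Atf4 at 845 and 921. Atf5 fell from 252 to 137 in naïve Mϕ and thereby below Psat1 (152), with samples close enough that the order of this pair in LPS is not settled. The short Ddit3 row is left out of this order, since a library fragment spans much of its length.

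The gene whose pattern over the 8 samples was most like that of Atf4 was Septin11, with a root mean square difference of 0.0588 between centred log2 values, followed by Safb2 (0.0861) and Dcun1d3 (0.100), beside a range of 0.74 for Atf4 itself. For Atf3 the nearest gene was Tnfrsf1b (0.145, range of Atf3 2.66), a TNF receptor, with 5714 and 4925 (Ctrl), 20373 and 13929.7 (LPS), 4443 and 4607 (Eff), and 26848 and 17582 (LPSEff). For Atf5 it was Txnrd2 (0.136, range of Atf5 1.60), the mitochondrial thioredoxin reductase, with 116 and 116 (Ctrl), 54.3 and 82.3 (LPS), 169 and 133 (Eff), and 78.4 and 76.1 (LPSEff). These neighbours were searched among all tested genes outside the lists and share the libraries with the members.

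The other genes of the pathway were read from 7 lists. Their counts stand beside 12.4% of all tested genes called higher and 11.6% called lower in naïve Mϕ, and 10.7% and 8.95% in efferocytic Mϕ. At equal totals the shares of all genes were 8.71% higher and 26.5% lower in naïve, and 7.46% and 26.7% in efferocytic Mϕ, so the lower counts at equal totals given for each list go with a shift of all genes. Of the 16 genes for eIF2, its kinases, its exchange factor eIF2B and its phosphatase, 3 were called higher and 2 lower in naïve Mϕ under LPS/IFNγ, and 3 higher and 1 lower in efferocytic Mϕ, or 5 and 4 of 16 where 24.0% and 19.7% of all genes were called. Eif2ak2, the double-stranded RNA kinase PKR and an interferon-induced gene, had 470.3 and 383 (Ctrl), 1689 and 2580.4 (LPS), 308 and 319.7 (Eff), and 1485 and 2221 (LPSEff) and rose by 2.29 and 2.53 on the log2 scale (limma adjusted p = 8.08e-04 and 5.35e-04). Ppp1r15a (GADD34), the inducible subunit that brings the phosphatase to eIF2 and a known ATF4 target, had 204 and 186 (Ctrl), 763 and 728 (LPS), 133 and 187 (Eff), and 678 and 451 (LPSEff) and rose by 1.93 and 1.80 (limma adjusted p = 0.00132 and 0.00212). Its constitutive counterpart Ppp1r15b rose by 1.26 and 1.26 (0.65 and 0.63 after quantile normalization). All 3 genes kept their call under all 16 alternatives run in each comparison. The other eIF2 kinases, named after their values were seen, did not rise in this way. Eif2ak4 (GCN2) had 524 and 464 (Ctrl), 203 and 284 (LPS), 482 and 472 (Eff), and 226 and 237 (LPSEff). Eif2ak3 (PERK) had 427 and 542 (Ctrl), 241 and 342 (LPS), 386 and 464 (Eff), and 269 and 307 (LPSEff). Both were lower in each stimulated group than in its control. Eif2ak1 (HRI) was lower in LPS than in Ctrl, and its efferocytic groups overlapped. The list's median was -0.16 and -0.06, and at equal totals 3 genes were called higher in each comparison while 8 and 7 were called lower.

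Among 9 tested amino acid transporters 2 were called higher and 1 lower in naïve Mϕ, and 2 higher and 2 lower in efferocytic Mϕ (medians -0.33 and -0.19). Slc7a11, the cystine importer, had 554 and 955 (Ctrl), 9976 and 11651 (LPS), 1363 and 2203 (Eff), and 14668 and 21978 (LPSEff) and rose by 3.89 and 3.37 (limma adjusted p = 2.17e-04 and 4.13e-04). Its partner chain Slc3a2 rose by 1.66 and 2.06 (limma adjusted p = 7.99e-04 and 2.85e-04), or 1.06 and 1.27 after quantile normalization. The glutamine carrier Slc1a5 fell instead, with log2 fold changes of -1.66 and -1.35 (limma adjusted p = 0.00316 and 0.00906), the latter lost without Eff replicate 1 (0.0713). At equal totals 2 transporters were called higher and 4 lower in each comparison.

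Of 12 aminoacyl-tRNA synthetases, enzymes that load tRNAs and are shared ATF4 targets, 1 was called higher and 5 lower in naïve Mϕ, and 1 higher and 3 lower in efferocytic Mϕ (medians -0.36 and -0.29). The gene that rose was Wars1, an interferon-γ-induced synthetase, with 430.3 and 457 (Ctrl), 1522 and 1776 (LPS), 421 and 428 (Eff), and 1428 and 1358 (LPSEff) and log2 fold changes of 1.89 and 1.71 (limma adjusted p = 2.24e-04 and 3.36e-04). Iars1 (-1.20 and -1.17) and Yars1 (-1.13 and -0.75) fell. The call of Iars1 in naïve Mϕ was lost without Ctrl replicate 2 or LPS replicate 1 (limma adjusted p = 0.083 to 0.11). The call of Iars1 in efferocytic Mϕ was lost without Eff replicate 1, Eff replicate 2 or LPSEff replicate 1 (limma adjusted p = 0.0936 to 0.135). The call of Yars1 in efferocytic Mϕ was lost without any 1 of its 4 libraries (limma adjusted p = 0.0869 to 0.162) and under 1 other alternative. At equal totals 9 synthetases were called lower in each comparison and 1 higher, where 26.5% and 26.7% of all genes were called lower. Of 10 other amino acid and folate enzymes, 1 was called higher and 2 lower in naïve Mϕ, and 1 higher and 1 lower in efferocytic Mϕ. Mthfd2, of mitochondrial folate metabolism, rose by 1.01 and 0.90 (limma adjusted p = 0.00911 and 0.0169), while Aldh18a1, of proline synthesis, fell with -0.91 and -0.88 (0.0128 and 0.0164) and Shmt2 with -0.81 in naïve Mϕ (0.0495). The call of Mthfd2 in naïve Mϕ was lost without Ctrl replicate 1 (limma adjusted p = 0.0698). The call of Mthfd2 in efferocytic Mϕ was lost at equal totals (limma adjusted p = 0.0757) and without Eff replicate 1, Eff replicate 2 or LPSEff replicate 2 (limma adjusted p = 0.0658 to 0.106). The call of Aldh18a1 in naïve Mϕ was lost without Ctrl replicate 1, Ctrl replicate 2 or LPS replicate 1 (limma adjusted p = 0.0538 to 0.0798). The call of Aldh18a1 in efferocytic Mϕ was lost without any 1 of its 4 libraries (limma adjusted p = 0.068 to 0.107). The call of Shmt2 in naïve Mϕ was lost after quantile normalization (limma adjusted p = 0.0953), without Ctrl replicate 1, Ctrl replicate 2 or LPS replicate 2 (limma adjusted p = 0.111 to 0.213) and under 4 other alternatives. At equal totals 1 of these enzymes was called higher and 3 lower in naïve Mϕ, and 0 higher and 1 lower in efferocytic Mϕ.

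Of 10 partner and other transcription factors, 3 were called higher and 2 lower in naïve Mϕ, and 2 higher and 2 lower in efferocytic Mϕ (medians 0.20 and 0.02). Maff, a small Maf protein, rose by 1.89 and 1.98 (limma adjusted p = 8.35e-04 and 7.40e-04). Cebpa (-2.17 and -2.37) and Fos (-1.39 and -2.14) fell (limma adjusted p = 0.00898, 0.00709, 0.0351 and 0.007). The call of Cebpa in naïve Mϕ was lost without Ctrl replicate 2 (limma adjusted p = 0.0594). The call of Cebpa in efferocytic Mϕ was lost without LPSEff replicate 1 (limma adjusted p = 0.0528). The call of Fos in naïve Mϕ was lost after quantile normalization (limma adjusted p = 0.0611), without Ctrl replicate 1 or LPS replicate 2 (limma adjusted p = 0.144 to 0.204) and under 2 other alternatives. At equal totals 1 factor was called higher and 2 lower in naïve Mϕ, and 1 higher and 3 lower in efferocytic Mϕ.

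Among 15 other targets of the response 2 were called higher in naïve and 6 in efferocytic Mϕ, and none lower (medians 0.17 and 0.45). The autophagy receptor Sqstm1 rose by 2.12 and 2.56 (limma adjusted p = 3.60e-04 and 1.35e-04; 1.34 in naïve Mϕ after quantile normalization), and Nfil3 by 1.89 in naïve Mϕ (0.00286). In efferocytic Mϕ Vegfa (2.92, 0.0466) and Ddit4 (2.76, 0.0339), an inhibitor of mTORC1, also rose. Ddit4 had 209 and 261 (Ctrl), 1538 and 369 (LPS), 145 and 163 (Eff), and 2126 and 511 (LPSEff), so that replicate 1 was far above replicate 2 in both stimulated groups, as for Trib3. The call of Vegfa in efferocytic Mϕ was lost after quantile normalization or at equal totals (limma adjusted p = 0.0506 to 0.0707) and without any 1 of its 4 libraries (limma adjusted p = 0.0536 to 0.24). The call of Ddit4 in efferocytic Mϕ was lost at equal totals (limma adjusted p = 0.0546) and without Eff replicate 1, Eff replicate 2 or LPSEff replicate 1 (limma adjusted p = 0.108 to 0.183). At equal totals only 2 of the other targets were called higher in efferocytic Mϕ and 2 were called lower.

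For comparison, 15 ER chaperone genes that answer mainly to ATF6 and XBP1, the other arms of the unfolded protein response, were counted. In naïve Mϕ 1 was called higher and 1 lower, and in efferocytic Mϕ 2 were called higher (medians 0.17 and 0.31). Hspa5 (BiP) had 11065 and 9548 (Ctrl), 17149 and 17186 (LPS), 9669.8 and 9387 (Eff), and 18292 and 22279 (LPSEff) and rose by 0.74 and 1.08 (limma adjusted p = 0.0361 and 0.00899), but after quantile normalization its values were -0.11 and 0.16 and 0 chaperones were called higher while 6 were called lower in naïve and 5 in efferocytic Mϕ (all genes 14.1% and 12.9% lower). Sdf2l1 fell with -0.60 in naïve Mϕ (0.0337) and Creld2 rose by 0.62 in efferocytic Mϕ (0.0384). The call of Hspa5 in naïve Mϕ was lost after quantile normalization or at equal totals (limma adjusted p = 0.235 to 0.742), without any 1 of its 4 libraries (limma adjusted p = 0.0867 to 0.176) and under 2 other alternatives. The call of Hspa5 in efferocytic Mϕ was lost after quantile normalization (limma adjusted p = 0.645) and without Eff replicate 1, Eff replicate 2 or LPSEff replicate 2 (limma adjusted p = 0.0565 to 0.0646). The call of Sdf2l1 in naïve Mϕ was lost without any 1 of its 4 libraries (limma adjusted p = 0.0852 to 0.163) and under 2 other alternatives. The call of Creld2 in efferocytic Mϕ was lost after quantile normalization or at equal totals (limma adjusted p = 0.201 to 0.479), without any 1 of its 4 libraries (limma adjusted p = 0.119 to 0.181) and under 2 other alternatives. At equal totals 0 chaperones were called higher and 4 lower in naïve Mϕ, and 1 higher and 4 lower in efferocytic Mϕ.

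**Figure D5:**
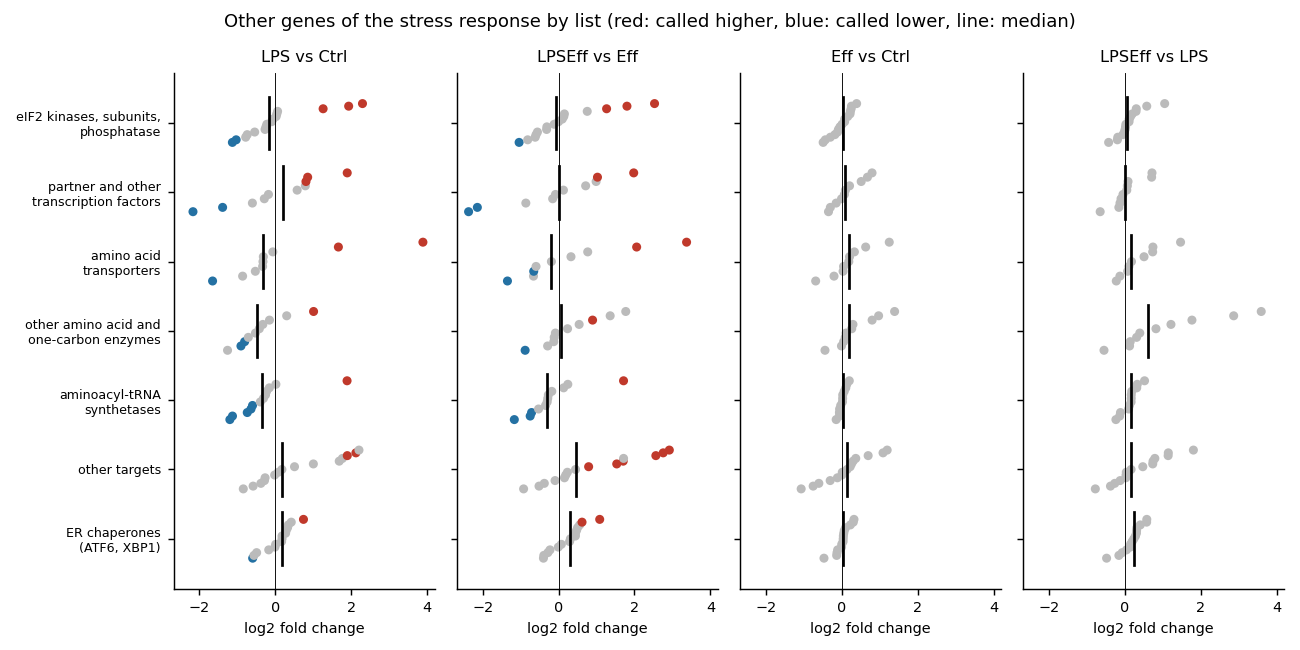
Log2 fold change (x axis) of every tested gene of the 7 lists in the 4 pairwise comparisons, with red for genes called higher, blue for genes called lower, grey for the rest and a black line at each list's median. Slc7a11 is the red point farthest to the right in LPS vs Ctrl (3.89), and no gene is coloured in the efferocytosis comparisons, which show the fit without the replicate block.

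Under efferocytosis no gene of the 7 lists was called in either state by limma without the replicate block. The values farthest from 0 were those of amino acid enzymes in stimulated Mϕ. Bcat1, a branched-chain aminotransferase, had 41.9 and 30.7 (Ctrl), 32.3 and 6.09 (LPS), 50.8 and 99.5 (Eff), and 164 and 207 (LPSEff) and differed by 3.59 ± 0.67 in LPSEff vs LPS (limma adjusted p = 0.0669). It passed under 8 of 16 alternatives, among them quantile normalization (limma adjusted p = 0.0462), a pseudocount of 5 (0.0436) and DESeq2 on recovered reads (2.87e-05), while edgeR without the block gave 0.0903. Its value was 4.71 without LPS replicate 1 and 2.47 without LPS replicate 2 (limma adjusted p = 0.0172 and 0.133). Aldh1l2, a mitochondrial folate enzyme, had 9.52 and 15.0 (Ctrl), 34.9 and 6.09 (LPS), 27.2 and 40.2 (Eff), and 127 and 104 (LPSEff) and differed by 2.86 ± 0.69 (limma adjusted p = 0.149), with DESeq2 giving an adjusted p of 0.0152 and the value being 4.03 without LPS replicate 1 (limma adjusted p = 0.0306). The fibroblast marker sum rose in the same samples as Bcat1 and Aldh1l2, and its part in their values was not tested.

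With the replicate block, limma called more of these genes in stimulated than in unstimulated Mϕ, as it did for all genes (6.97% and 2.67%). In LPSEff vs LPS it called 3 of 9 transporters and 3 of 15 other targets higher, 3 of 10 enzymes higher and 1 lower, 2 of 15 chaperones, 1 of 16 eIF2 genes and 1 of 12 synthetases higher, and no transcription factor. Bcat1 (0.00532) and Aldh1l2 (0.0197) were among them, the values in parentheses being limma adjusted p with the block. So were the cystine importer Slc7a11 (log2 fold change 0.74, 0.0221), the glycine carrier Slc6a9 (1.46, 0.0345), Impact, an inhibitor of GCN2 (1.05, 0.0075), Vegfa (1.80, 0.0158), Tars1 (0.51, 0.0484), Creld2 (0.57, 0.0364) and Pdia4 (0.57, 0.0425). Vegfa was at 0.56 without LPS replicate 2 and 3.04 without LPS replicate 1, neither of which passed. In Eff vs Ctrl the block gave 2 calls, Slc7a11 higher (1.25, 0.00227; also called by DESeq2 without the block) and Bbc3 lower (-1.07, 0.0348), which encodes the cell death protein PUMA and was named after its values were seen. Stc2, a secreted glycoprotein, differed by 1.20 in unstimulated and 1.14 in stimulated Mϕ and did not pass with or without the block. Slc1a4 (-0.69) and Mars1 (-0.15) in Eff vs Ctrl did not pass either.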

How the data were processed

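RNA of 8 Mϕ samples was sequenced after rRNA depletion. Per the labels and the methods, the authors trimmed reads with cutadapt, removed rRNA with bowtie2, mapped to mm39 with STAR, counted with htseq-count at default settings and used DESeq2, and the versions and annotation release are not given in the sources used here. The deposited signal is a normalized count, scaled by a size factor per sample. In every sample 100% of values were whole multiples of the worth of 1 read (tolerance 0.01), which gave the recovered reads and 3-read floors, and both cover counting error only. Gene names came from GENCODE release 39 on GRCm39, which named 54749 of 55359 identifiers.

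Groups came from the sample titles. limma 3.58.1 (R 4.3.3) with a trend was fitted to log2(normalized count + 1), with a minimum mean of 10, all 8 samples, 4 residual degrees of freedom and 6 contrasts. Fold changes are on this scale, which understates the change of low genes. edgeR 4.0.16 and DESeq2 1.42.0 were run on recovered reads. Alternatives changed the pseudocount (0.5 or 5), the filter (above 0 or at least 50), the scaling, the groups fitted or the test, or left out each sample. The scripts were tested on simulated data. Same-numbered samples deviated together (r of 0.404 to 0.595 over the 6 pairs of groups), so the numbers from the titles were used as a replicate block in an alternative with 3 residual degrees of freedom. The members and gene lists were chosen with earlier results of these data known. All members are named, and of each list the called genes with the 3 largest changes among those without overlap, or, with none called, some of the 2 largest. Eif2ak1, Eif2ak3, Eif2ak4 and Bbc3 were named outside this rule. For each called member 1 nearest gene is named, and for Atf4 3.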

Additional observations from a re-analysis of the deposited data

How the results depend on the processing

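Of 1572 recomputed values of single genes, 1421 kept their direction and their side of the threshold, 86 lost a call, 49 gained a call and 16 turned their sign. The members called numbered 2 in LPS vs Ctrl, and 1 after quantile normalization or with only the groups compared. At equal totals they were again 2, with Psat1 in place of Atf3. They numbered 2 in LPSEff vs Eff, 3 with the replicate block or at equal totals (Ddit3 added), and 4 with the block in edgeR or DESeq2. In the average efferocytosis effect they numbered 0, and 1 with the block in limma, edgeR or DESeq2. The DESeq2 fit with the block was chosen after seeing the data. Leaving out 1 sample gave 0 to 3 called members in LPS vs Ctrl (0 without Ctrl replicate 1 or 2, 1, which is Psat1, without LPS replicate 1, and 3 without LPS replicate 2, where Chac1 joins Atf3 and Atf5) and 1 in LPSEff vs Eff for every sample left out. A lone sample was then assumed to vary like the other groups. Apart from Atf4 and Sesn2 among the members, the block in limma changed no call.

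At equal totals the sign turned in LPS vs Ctrl for Atf4 (-0.091) and Sesn2 (-0.020) and in LPSEff vs Eff for Sesn2 (-0.048) and Asns (-0.082), and after quantile normalization in LPS vs Ctrl for Atf4 (-0.094) and Hspa5 (-0.115). With equal totals the median gene moved to -0.40 and -0.44 and the share of calls that were higher fell from 51.5% to 24.8% in naïve and from 54.6% to 21.8% in efferocytic Mϕ. Leaving out 1 sample turned small values of Atf4, in Eff vs Ctrl (0.121 without Ctrl replicate 1 and 0.049 without Eff replicate 2), in LPSEff vs LPS (-0.110) and the interaction (-0.075) without LPS replicate 2, and in the average efferocytosis effect (-0.026 without Ctrl replicate 2, -0.073 without LPS replicate 2 and -0.015 without LPSEff replicate 1). It did so for Mars1 (0.041) and Slc1a4 (0.092) in Eff vs Ctrl without Ctrl replicate 2, and for Stc2 in LPSEff vs LPS without LPS replicate 2 (-0.083). Over the samples left out, the values ran from -0.191 to 0.121 for Atf4 in Eff vs Ctrl, from -0.110 to 0.390 in LPSEff vs LPS, from -0.075 to 0.425 in the interaction and from -0.073 to 0.177 in the average effect, and from -0.338 to 0.041 for Mars1, from -1.469 to 0.092 for Slc1a4 and from -0.083 to 2.365 for Stc2. The causes were not tested. With 2 samples a group and the shallowest library at 3481288 reads, the 95% intervals of Trib3 and Chac1 are wider than a 2-fold change on each side of the value.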
